A study of Rattus norvegicus with 2 samples.

Results

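Immediate-early factors are the transcription regulators that a cell makes within minutes of a stimulus, from genes that need no new protein to be switched on. The 10 genes described here are Fos, Jun, Junb and Jund, whose proteins pair to form the factor AP-1, the zinc finger factors Egr1 and Klf6, the orphan nuclear receptors Nr4a1, Nr4a2 and Nr4a3, and Zfp36, which encodes tristetraprolin, a protein that speeds the decay of many short-lived mRNAs. They were chosen by name: every probe set whose only gene symbol in the platform annotation is 1 of these 10 was taken, which gave 24 of the 8799 probe sets and 10 of the 4737 named genes on the array. The genes were measured in small mesenteric arteries of rats, the muscular vessels that feed the intestine, taken from the first and second branching orders. In the portal hypertensive rats the portal vein had been partly ligated before it enters the liver, which produces prehepatic portal hypertension, and the other rats were sham operated. Each condition was 1 pool of RNA from 20 rats hybridised to 1 rat array, Affymetrix RG_U34A, which reports a signal intensity for each probe set. Strain, sex, age, time after the operation and the way the vessels were freed and stored are not given in the labels. With 1 array in each group there is no p-value, standard error or replicate check for any difference, and the 2 arrays limit the precision.

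In resting vessel wall most of these genes are kept low, and stretch, injury, serum or vasoconstrictor signalling induces them within minutes and for a short time. The signal reaches them mainly through mitogen-activated protein kinases acting on serum response factor and its partners at CArG boxes, and through cyclic AMP and calcium acting on CREB at cyclic AMP response elements. Warm dissection of tissue induces the same genes, so that their level in an excised vessel can reflect handling as well as the state of the animal. No array of vessels taken without dissection is analysed here, and the signal that both pools share therefore has nothing to be set against.

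Promoter sequences from RefSeq on the rat assembly GRCr8, from 250 bases before the annotated start to 50 bases from it on, were matched for 7 of the 10 genes: Junb, Jund, Egr1, Nr4a1, Nr4a2, Klf6 and Zfp36. The 5 below are shown because they hold a CArG box, or the CRE core letters more than 2 times. Capitals mark matches to the motifs searched, and the strand is that of the gene, 5′ to 3′.
Jund promoter, chr16:18769722-18770021, - strand: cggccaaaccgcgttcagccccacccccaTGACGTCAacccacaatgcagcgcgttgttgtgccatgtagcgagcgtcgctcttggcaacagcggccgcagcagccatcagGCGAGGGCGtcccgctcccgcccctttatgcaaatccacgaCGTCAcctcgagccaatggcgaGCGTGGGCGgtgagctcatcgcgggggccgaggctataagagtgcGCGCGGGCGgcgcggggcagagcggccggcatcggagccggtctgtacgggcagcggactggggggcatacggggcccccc
Egr1 promoter, chr18:26736828-26737127, + strand: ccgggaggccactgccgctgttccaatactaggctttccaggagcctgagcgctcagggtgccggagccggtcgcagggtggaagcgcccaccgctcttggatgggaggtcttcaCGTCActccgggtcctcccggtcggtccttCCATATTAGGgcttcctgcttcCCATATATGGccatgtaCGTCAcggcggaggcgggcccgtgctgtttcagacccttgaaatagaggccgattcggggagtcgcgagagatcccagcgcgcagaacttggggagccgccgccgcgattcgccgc
Klf6 promoter, chr17:69458429-69458728, - strand: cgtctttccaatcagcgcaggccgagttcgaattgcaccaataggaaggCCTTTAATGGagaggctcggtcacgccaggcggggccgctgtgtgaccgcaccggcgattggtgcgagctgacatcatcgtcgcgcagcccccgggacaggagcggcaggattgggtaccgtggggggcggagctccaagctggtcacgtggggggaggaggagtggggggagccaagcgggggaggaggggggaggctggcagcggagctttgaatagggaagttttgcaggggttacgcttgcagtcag
Zfp36 promoter, chr1:92799059-92799358, - strand: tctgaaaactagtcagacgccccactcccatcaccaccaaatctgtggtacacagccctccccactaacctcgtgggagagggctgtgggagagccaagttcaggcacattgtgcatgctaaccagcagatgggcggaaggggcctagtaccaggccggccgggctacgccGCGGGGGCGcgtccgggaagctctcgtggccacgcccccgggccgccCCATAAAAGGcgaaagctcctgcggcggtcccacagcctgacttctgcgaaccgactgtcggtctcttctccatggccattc
Nr4a1 promoter, chr7:134259888-134260187, + strand: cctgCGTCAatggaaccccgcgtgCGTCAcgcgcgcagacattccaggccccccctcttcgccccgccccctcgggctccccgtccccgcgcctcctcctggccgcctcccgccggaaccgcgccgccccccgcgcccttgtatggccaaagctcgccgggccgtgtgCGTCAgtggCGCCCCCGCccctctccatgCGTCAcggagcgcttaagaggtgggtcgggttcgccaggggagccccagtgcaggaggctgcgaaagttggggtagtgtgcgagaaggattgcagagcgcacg

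The CArG box, the binding motif of serum response factor, matched in Egr1, Klf6 and Zfp36, that is in 3 of the 7 promoters, and in 1.64% of all 33469 promoters of the same length. Egr1 held 2 boxes, from -105 to -96 and from -83 to -74 bases relative to the annotated start, and Klf6 held 1 from -201 to -192. The box of Zfp36 lay from -32 to -23. The full cyclic AMP response element, TGACGTCA, matched only Jund among the 7, from -221 to -214, against 1.83% of all promoters. Its variant TGACGCAA matched none of the 7 and 0.496% of all promoters. The core letters TGACG alone, a search added after the first matches were seen, were in Junb, Jund, Egr1, Nr4a1 and Nr4a2, against 21.2% of all promoters. Nr4a1 held 4 of them, all on the opposite strand, and in Jund the core matches include both ends of the full element. The EGR site GCGNGGGCG was in Jund, with 3 matches, and in Nr4a1 and Zfp36 with 1 each, against 4.98% of all promoters. The AP-1 site TGANTCA and the NR4A motif AAAGGTCA, called the NGFI-B response element, matched none of the 7, against 7.33% and 1.43% of all promoters. The TATA letters TATAAA were in Junb alone, against 14.2%. Both strands were searched, and a match describes letters only.

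**Figure D1:**
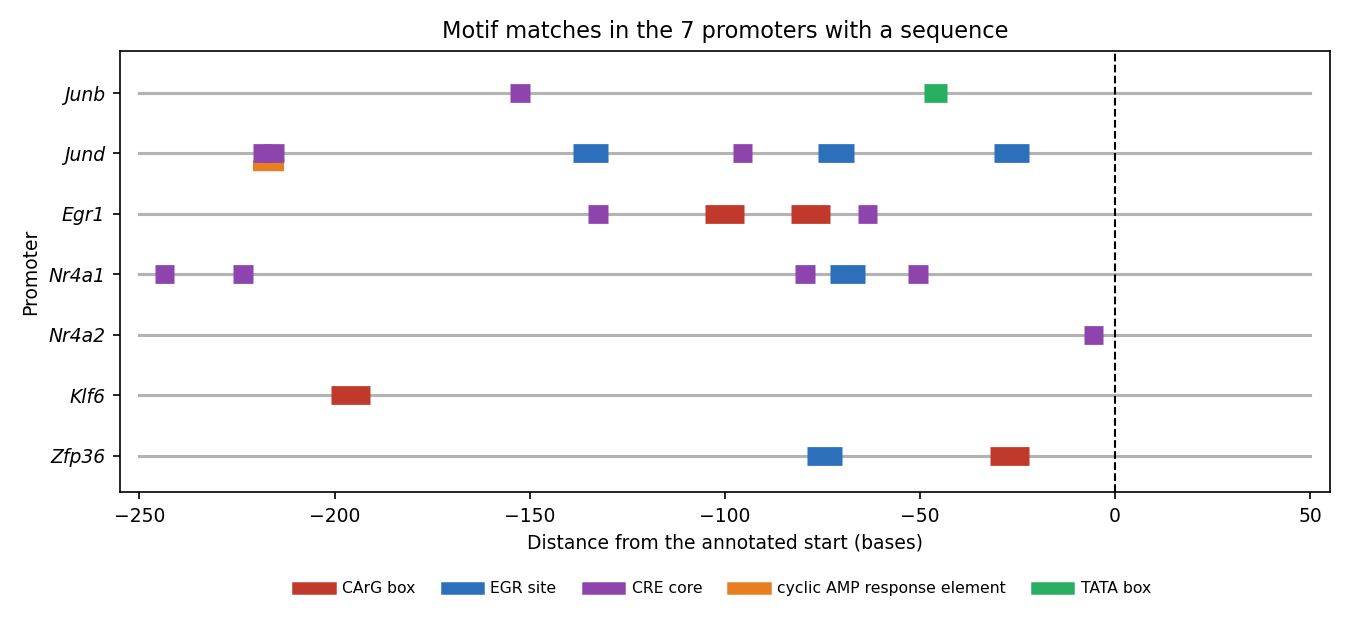
Motif matches in the 7 promoters with a sequence. The horizontal axis is the distance in bases from the annotated start of the gene, and each coloured block is a match on either strand. CArG boxes appear in Egr1, Klf6 and Zfp36, and CRE core matches in Junb, Jund, Egr1, Nr4a1 and Nr4a2.

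The arrays were alike in 2% trimmed mean, at 2504.4 in the portal hypertensive pool and 2504.3 in the sham pool. Their medians differed, at 525.7 in the portal hypertensive pool and 557 in the sham pool. A floor was set at 330.9, the 40th percentile of all values but those of control probe sets, and a probe set was called measured when it lay above the floor in both pools. The file headers note 12.5 µg of labelled cRNA and fluidics module 1 for the portal hypertensive array, against 17 µg and module 2 for the sham array, so these settings and the operation cannot be told apart. A question mark follows each cRNA amount there. The 9 spike-in controls had a mean log2 ratio of 0.28 (SD 0.28), with 8 of the 9 above 0. The 3′ over 5′ signal ratio, a sign of RNA integrity, was 1.79 in the portal hypertensive pool and 2.05 in the sham pool for the beta-actin controls. For the GAPDH controls it was 1.85 in the portal hypertensive pool and 1.83 in the sham pool. The pools gave strong signals for smooth muscle genes, such as 99066.7 in the portal hypertensive pool and 88269.8 in the sham pool for a Tagln probe set. The endothelial gene Pecam1 gave 3176.3 in the portal hypertensive pool and 3408.7 in the sham pool, while the endothelial marker Vwf lay below the floor in both.

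Most of the immediate-early factors were slightly lower in the portal hypertensive pool. Klf6 had 0.610 times its sham signal, Zfp36 0.690 times over its probe sets, and Nr4a1 and Nr4a2 0.811 and 0.814 times, while Nr4a3 alone was higher, at 1.35 times. Fos, Junb, Egr1 and Jun lay within 1.2-fold of sham. Of the 9 genes with a value, 8 had a log2 ratio of portal hypertensive over sham below 0, against 53.2% of all 3351 genes with a value. The median of the 9 was -0.23 and that of all genes -0.02, and the median of the immediate-early genes lay between -0.46 and -0.09 under the other settings. The count was 6 of 9 under each of 3 other scalings, where Egr1 and Jun came to 0 or slightly above it. The share of all genes below 0 was then 48.3% after quantile normalization and 49.9% with the loess trend removed. Centring the arrays on their medians took it to 42.0%.

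By size the differences were small. At least 1.5-fold lower was 1 of the 9 genes, Klf6, against 5.04% of all genes, and 0 of the 9 were at least 1.5-fold higher, against 3.13%. The spread between measured probe sets of the same gene served as the measure of error, and its SD was 0.30 on the log2 scale over 1801 probe sets of 789 genes. It is technical and leaves out all differences between rats, as does the spread of the spike-in controls. Probe sets of a gene were read from the same 2 pools and arrays. Their spread therefore also leaves out differences in RNA preparation, labelling and hybridisation that they share. The number of measured probe sets behind a gene value ran from 1 to 3, and Klf6, Fos, Junb, Nr4a2 and Nr4a3 each had 1 measured probe set. The value of Nr4a2 also takes in a probe set that gives only a bound.

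**Figure D2:**
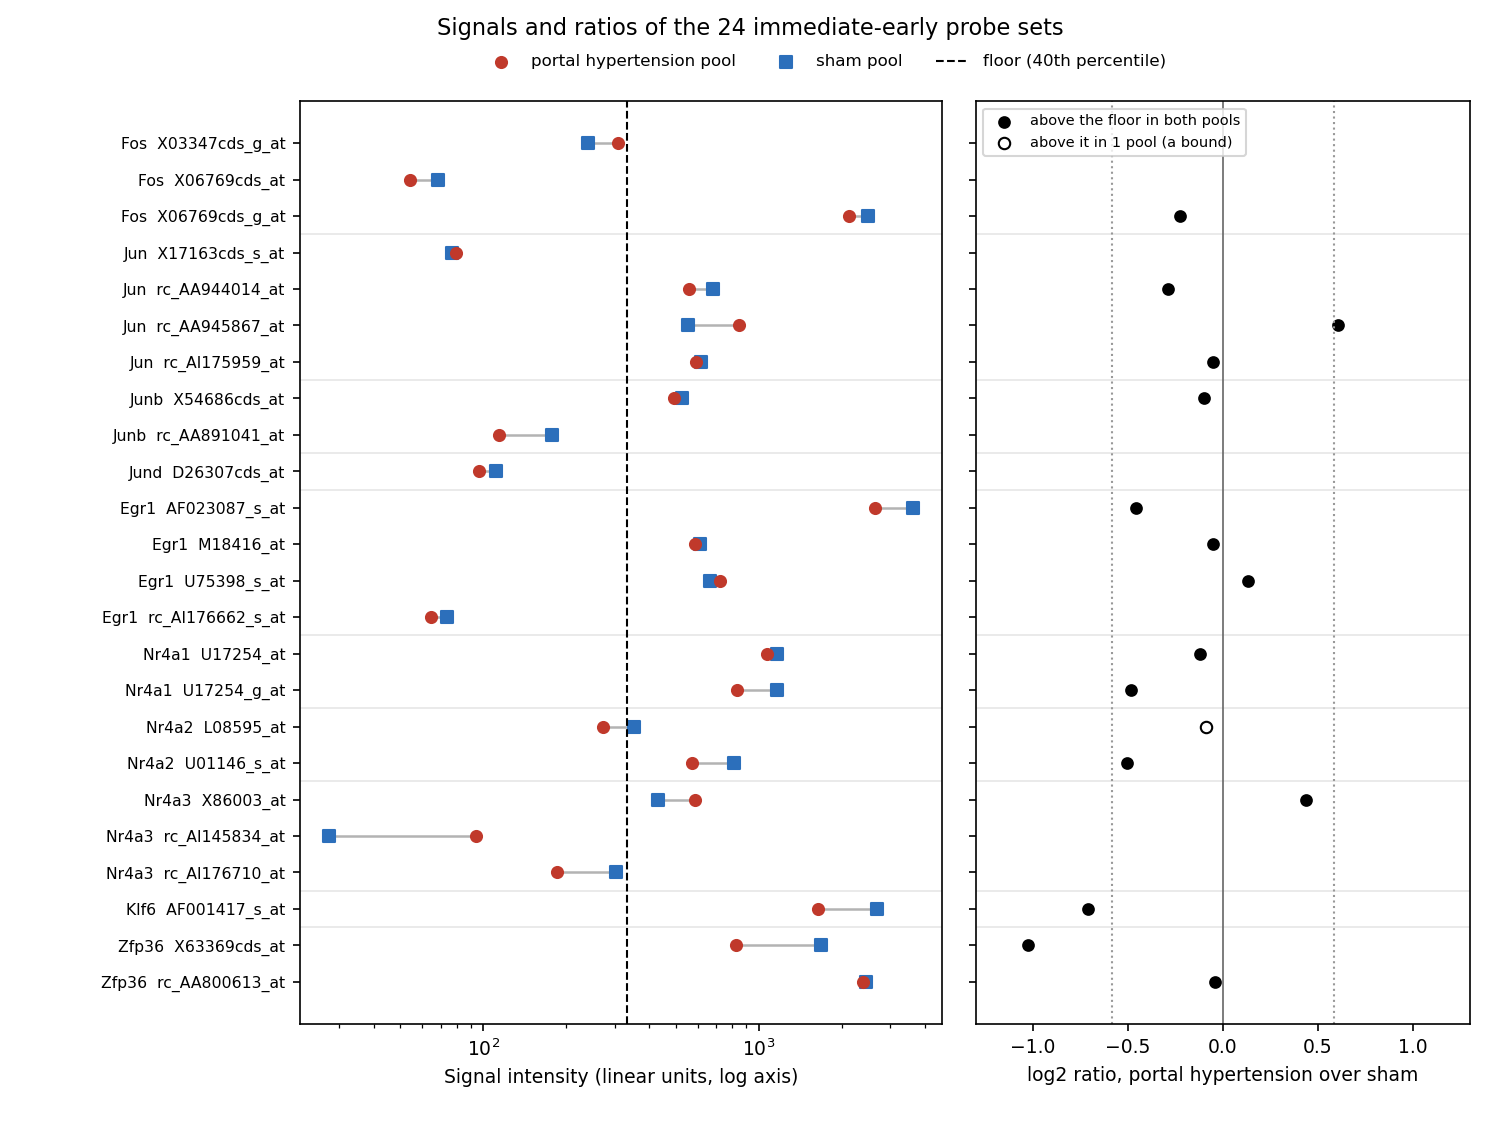
Signals and ratios of the 24 probe sets. The left panel gives the signal intensity on a log axis, with circles for the portal hypertensive pool, squares for the sham pool and the floor of 330.9 as a dashed line, and the right panel gives the log2 ratio, with dotted lines at 1.5-fold. The Klf6 probe set and 1 Zfp36 probe set lie left of the lower dotted line, and 8 probe sets below the floor in both pools have no ratio.

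Of the 24 probe sets, 15 were measured, 1 was above the floor in 1 pool only, and 8 were below it in both. Across the whole array 4960, 567 and 3213 of 8740 probe sets fell into the same classes. Among the 15 measured, 12 had ratios below 0, against 53.1% of all measured probe sets, and 9 or 10 did so under other scalings. The share of all measured probe sets was not worked out for those scalings. At least 1.5-fold lower were 2 of the 15, against 5.38%, and 1 was at least 1.5-fold higher, against 3.10%. Only a Zfp36 probe set was at least 2-fold lower, against 0.907%. The median of the 15 was -0.12, against -0.02 over all measured probe sets. Probe sets of 1 gene share its mRNA, and some share a source sequence, so the 15 are not independent measurements.

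**Figure D3:**
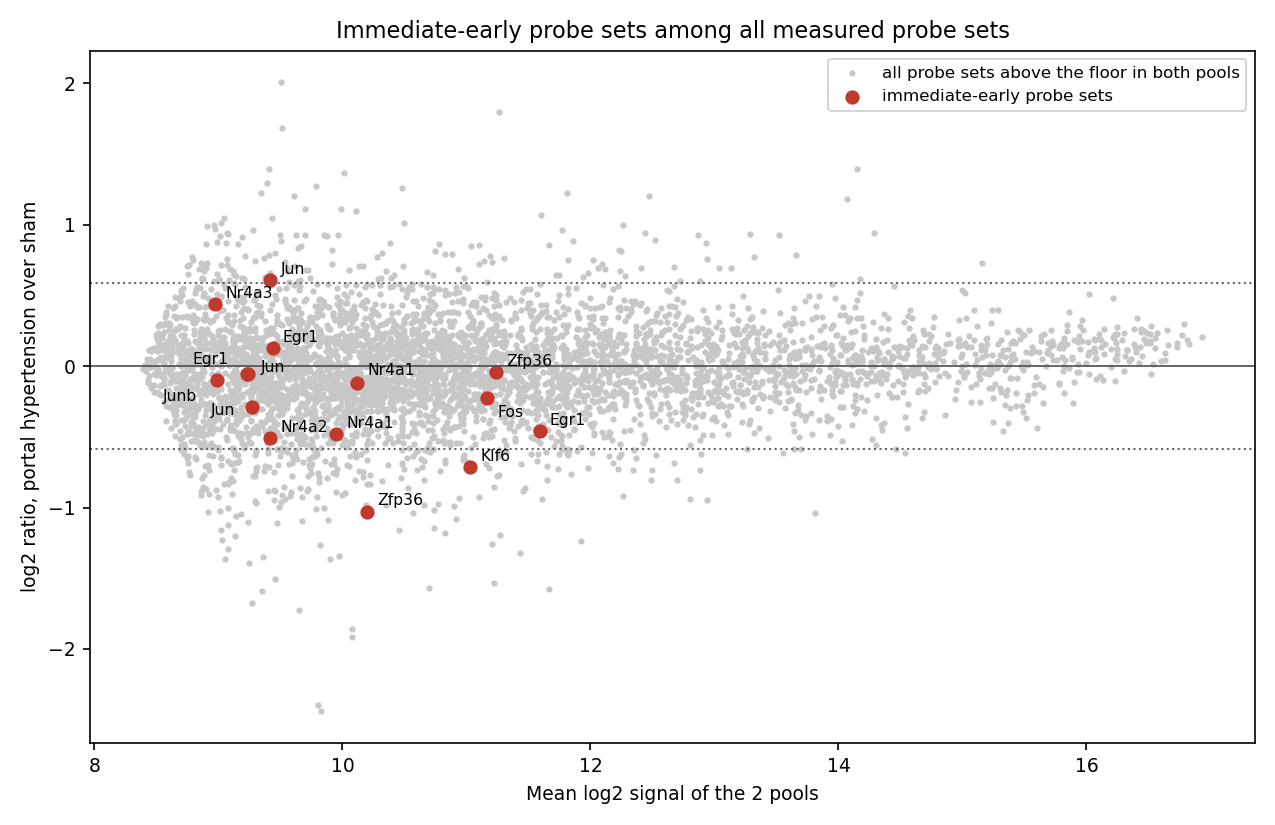
Log2 ratio of portal hypertensive over sham against the mean log2 signal of the 2 pools, for all 4960 measured probe sets in grey and the 15 immediate-early ones in red. Dotted lines mark 1.5-fold. The immediate-early probe sets lie in the lower and middle range of signal, and 12 of them lie below 0, or 9 or 10 under other scalings.

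Fos encodes a protein that pairs with Jun proteins in dimers more stable than those of Jun alone. Its 1 measured probe set, X06769cds_g_at, gave 2124.4 in the portal hypertensive pool and 2485.2 in the sham pool, a log2 ratio of -0.23. That difference is smaller than the SD between probe sets of a gene. X06769cds_at, drawn from the same source sequence, gave 54.3 in the portal hypertensive pool and 68.5 in the sham pool, both below the floor. X03347cds_g_at was also below it, with 309 in the portal hypertensive pool and 240.2 in the sham pool. The value of Fos thus rests on a single probe set, and its companion from the same sequence stayed under the floor.

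Jun, the main transactivating partner of Fos, had 3 measured probe sets that did not go the same way. Probe set rc_AA945867_at gave 844.5 in the portal hypertensive pool and 554.4 in the sham pool, a log2 ratio of 0.61. The ratio was -0.29 on rc_AA944014_at, with 559.9 in the portal hypertensive pool and 683.4 in the sham pool. On rc_AI175959_at, with 593.3 in the portal hypertensive pool and 615.5 in the sham pool, it was -0.05. The distance between the highest and the lowest ratio, 0.89, was matched or passed by 4.94% of the 789 genes with at least 2 measured probe sets, so the direction of Jun was not settled. The remaining probe set, X17163cds_s_at, lay below the floor, with 79.5 in the portal hypertensive pool and 77.2 in the sham pool.

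Junb and Jund encode the Jun proteins that often restrain Jun. Junb gave 490 in the portal hypertensive pool and 524.9 in the sham pool on X54686cds_at, a log2 ratio of -0.10. Its other probe set, rc_AA891041_at, lay below the floor, at 114 in the portal hypertensive pool and 176.9 in the sham pool. Jund, which many cells express without stimulation, was read by 1 probe set, D26307cds_at, and lay below the floor with 96.5 in the portal hypertensive pool and 110.8 in the sham pool, so no ratio is given.

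Egr1, an early growth response factor that drives genes of vascular injury, had its strongest signal on AF023087_s_at, with 2631.2 in the portal hypertensive pool and 3619.3 in the sham pool, a log2 ratio of -0.46. Of all measured probe sets, 9.72% had a lower ratio. The other measured probe sets showed little difference, with 588.7 in the portal hypertensive pool and 611.8 in the sham pool on M18416_at, and 724.9 in the portal hypertensive pool and 662.6 in the sham pool on U75398_s_at. Their log2 ratios were -0.06 and 0.13, and the median for the gene was -0.06. The sign of that median turned under other scalings, and it was -0.46 when the probe set of highest level stood for the gene. The last probe set, rc_AI176662_s_at, was below the floor, with 64.7 in the portal hypertensive pool and 73.6 in the sham pool.

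The NR4A receptors bind DNA without a known physiological ligand, so that their activity follows how much of them is made. Both probe sets of Nr4a1, which come from the same source sequence, were lower. U17254_g_at gave 835.7 in the portal hypertensive pool and 1168.1 in the sham pool, a log2 ratio of -0.48. U17254_at gave 1068.2 in the portal hypertensive pool and 1163.1 in the sham pool, a log2 ratio of -0.12. Nr4a2 gave 572.2 in the portal hypertensive pool and 813.5 in the sham pool on U01146_s_at, a log2 ratio of -0.51. On L08595_at it was at 271.6, below the floor, in the portal hypertensive pool and at 351.6 in the sham pool, which makes it at least 1.06-fold lower there. Over both probe sets the value of Nr4a2 was -0.30, as was that of Nr4a1.

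Nr4a3 differed in sign from its relatives, on 1 weak probe set. X86003_at gave 584.8 in the portal hypertensive pool and 431.7 in the sham pool, a log2 ratio of 0.44, and 93.4% of all measured probe sets had a lower ratio. Both remaining probe sets lay under the floor, and they did not go the same way. On rc_AI145834_at the signals were 93.8 in the portal hypertensive pool and 27.6 in the sham pool, and on rc_AI176710_at they were 185.6 in the portal hypertensive pool and 302.5 in the sham pool. With the floor at the 20th percentile, which admits the last of these, the value of Nr4a3 turned to -0.13, so its direction depended on the floor.

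Klf6, a Krüppel-like factor described in injured endothelium, had the lowest value of the 9 genes with one. Its single probe set, AF001417_s_at, gave 1636.5 in the portal hypertensive pool and 2681.7 in the sham pool, a log2 ratio of -0.71. Of all 3351 genes with a value, 104 had a lower one, or 3.10%. The ratio lay between -0.71 and -0.63 under all 9 alternative settings that gave it a value. Only the other scalings and the setting with no floor could move it, since its single probe set lay above every floor used. The name of the probe set ends in _s_at, the mark of a design that can match more than 1 transcript, and without such probe sets Klf6 has no value. No second probe set is there to set beside it.

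The probe sets of Zfp36 did not give the same size. X63369cds_at gave 823.9 in the portal hypertensive pool and 1680.6 in the sham pool, 0.490 times the sham signal, and only 0.786% of all measured probe sets had a lower ratio. On rc_AA800613_at the pools were alike, with 2377.6 in the portal hypertensive pool and 2445.1 in the sham pool and a log2 ratio of -0.04. The ratios differ by 0.99, a distance that 4.06% of the 789 genes reached. The gene value of -0.53 is the midpoint of these readings, and it was -0.04 when the probe set of highest level stood for the gene.

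Ranked by gene value from lowest to highest, the order was Klf6, Zfp36, Nr4a1, Nr4a2, Fos, Junb, Egr1, Jun and Nr4a3. Neighbours in this order differed by at most 0.23 on the log2 scale, less than the SD between probe sets of a gene, except Jun and Nr4a3, which were 0.49 apart. Klf6, Nr4a1 and Zfp36 lay below 0 under every setting that gave them a value, as did Nr4a2 and Junb. Under the other scalings Junb was close to 0, between -0.045 and -0.013. The weaker of the Zfp36 ratios, on rc_AA800613_at, was 0.04 with the arrays centred on their medians. Fos was above 0 in 1 of 10 settings, the floor at the 20th percentile.

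**Figure D4:**
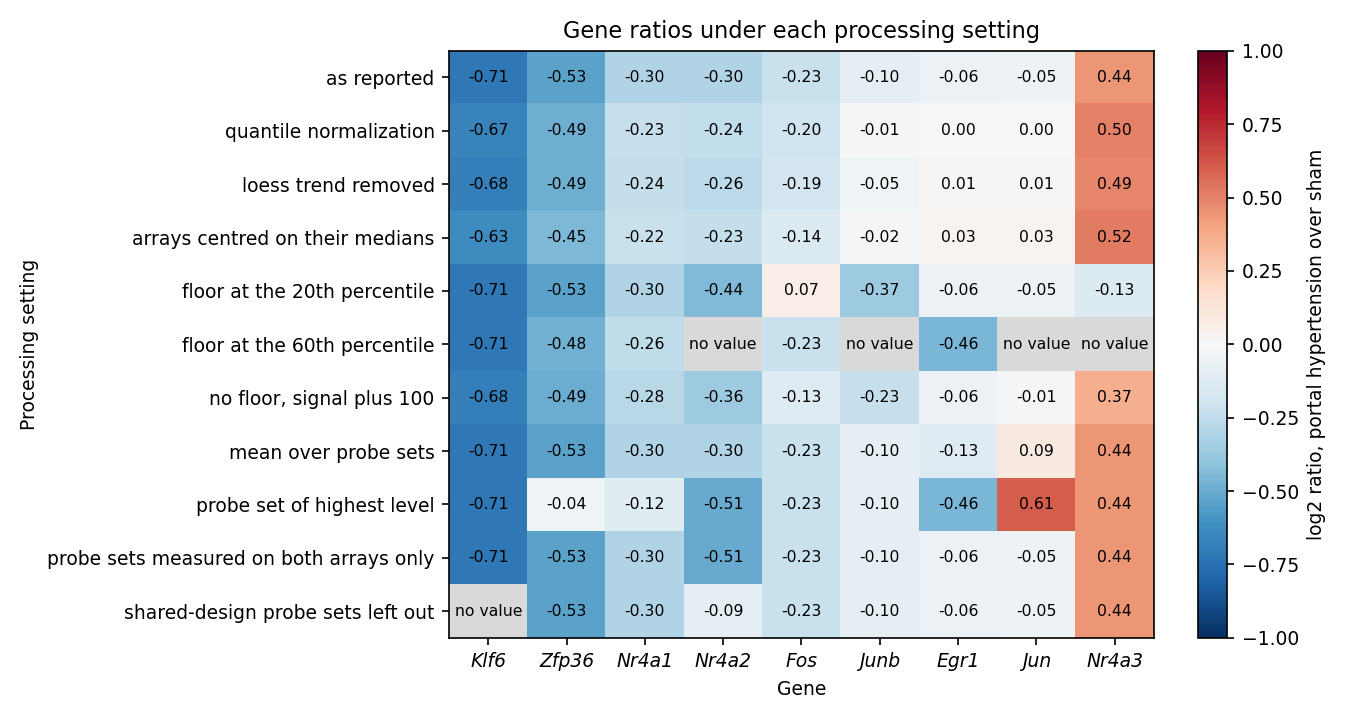
Log2 ratio of portal hypertensive over sham for each gene with a value, in columns from the lowest to the highest, under each processing setting in rows. Blue is lower and red is higher in the portal hypertensive pool, and grey cells have no value. Klf6 stays between -0.71 and -0.63, and with a single probe set above every floor it could change only with the scaling or without a floor. When the probe set of highest level stands for the gene, Jun moves from -0.05 to 0.61 and Egr1 from -0.06 to -0.46. Zfp36 then moves from -0.53 to -0.04, Nr4a1 from -0.30 to -0.12 and Nr4a2 from -0.30 to -0.51.

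Genes that act with these factors were described by lists of known roles. Their counts stand against the 53.2% of all genes below 0, the 5.04% at least 1.5-fold lower and the 3.13% at least 1.5-fold higher. Among the AP-1 partners and related basic leucine zipper factors, 8 of 20 had a value, 7 of the 8 were below 0, and the median was -0.24. The cyclic AMP response factor gene Creb1 was the 1 member at least 1.5-fold lower, with 339.9 in the portal hypertensive pool and 522.7 in the sham pool, close to the floor. Atf2, another partner of Jun, had -0.31 and Fosl2, a Fos relative, -0.31, while Maf, a larger leucine zipper factor, had 0.40. The values of Fosl2 and Maf each take in a probe set that gives only a bound. On their measured probe sets they had -0.15 and 0.35. Among other early transcription regulators 11 of 14 were below 0 with a median of -0.10, and 0 reached 1.5-fold in either direction. In that list Id2, an inhibitor of helix-loop-helix factors, had -0.30, and Klf9, a glucocorticoid-responsive relative of Klf6, had -0.14. Nab1, a corepressor of EGR proteins, had 0.21 and Cebpb 0.18.

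Of 15 upstream kinases and factors, which act before these genes are switched on, 11 were below 0, against 53.2% of all genes, with a median of -0.07 that came to 0.00 and 0.01 under quantile normalization and median centring. Creb1, which is on this list too, was the 1 member at least 1.5-fold lower, with a log2 ratio of -0.62, against 5.04% of all genes. Among members with no probe set in the opposite direction, Araf, a kinase of the mitogen-activated cascade, had 0.22, Map2k5 0.21 and Map2k6 0.17. The value of Map2k5 takes in a bound, and its measured probe set had 0.26. The immediate-early effectors had 12 of 19 below 0, or 63.2%, near the 53.2% of all genes, and a median of -0.12. Dusp6, a phosphatase that switches off mitogen-activated kinases, had 1243.4 in the portal hypertensive pool and 752.9 in the sham pool, a log2 ratio of 0.72, and was the 1 effector at least 1.5-fold higher, against 3.13% of all genes. Nfkbia, the inhibitor of NF-κB, had 0.47, the growth factor gene Hbegf -0.37 and the urokinase receptor gene Plaur -0.36.

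Among mRNA decay factors and mRNAs that such factors are known to shorten, 7 of 9 were below 0, against 53.2% of all genes, and the median was -0.23. Zfp36l1, the relative of Zfp36 on this array with a value, had -0.38 and -0.07 on its probe sets, Ier3 had -0.23 and Il1b -0.14. Of the classical targets of AP-1 or EGR1, 6 of 15 were below 0, against 53.2% of all genes, and the median was 0.05. Edn1, the endothelin precursor gene, was the 1 target at least 1.5-fold higher, at 0.62, against 3.13% of all genes, the protease gene Plau had 0.36 and Nqo1 0.30, and the matrix protein gene Spp1 had -0.39. Heat shock genes, which tissue handling also induces, had 8 of 12 below 0, against 53.2% of all genes, and a median of -0.04, which was 0.04 under median centring. Of the 12, 0 reached 1.5-fold in either direction. Hspb1 had -0.29 over 4 probe sets that went the same way, Hspa1a -0.17 and Hspa4 -0.15, and Hmox1 had 0.24. Some genes are on more than 1 of these lists.

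**Figure D5:**
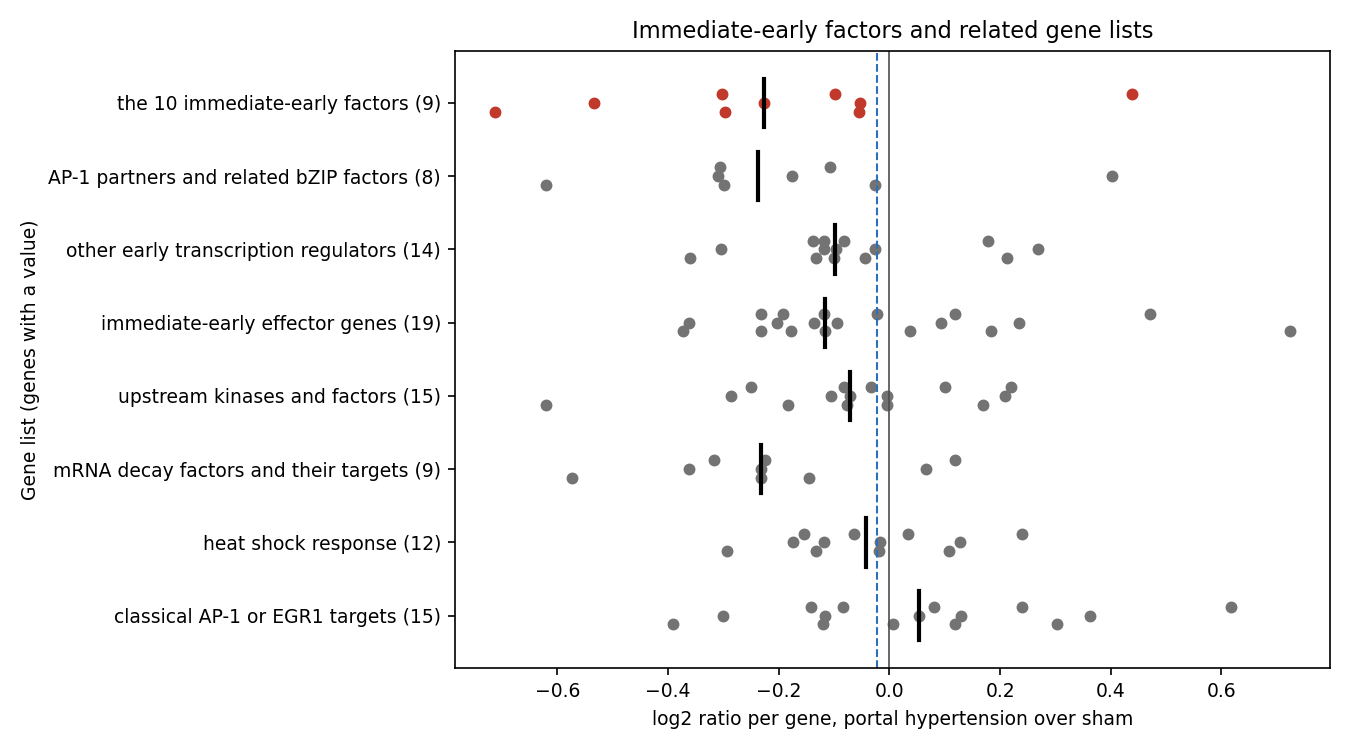
Log2 ratio of portal hypertensive over sham for each gene with a value, in red for the immediate-early factors and in grey for 7 related lists, with the number of genes in brackets and black bars at the medians. The dashed blue line is the median of all genes, -0.02. The medians of the immediate-early factors, of the AP-1 partners and of the mRNA decay list lie between -0.24 and -0.23, and those of the other lists between -0.12 and 0.05.

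Markers of cell types in the vessel and around it had medians on both sides of 0, to be read against the 53.2% of all genes below 0 and their median of -0.02. In a pool of whole vessels, fewer cells of a type and less RNA per cell cannot be told apart. Endothelial markers were below 0 for 5 of 5 genes with a value, with a median of -0.29. Their summed signal was 8706 in the portal hypertensive pool and 10693 in the sham pool, and Vwf, Kdr and Sele were below the floor. Of the 5, 2 were at least 1.5-fold lower, Icam2 and Nos3, against 5.04% of all genes, and 0 were at least 1.5-fold higher. Icam2 was at -1.13 on a single probe set, while Nos3 had probe sets on both sides of 0, from -1.2 to 0.25. Flt1, Pecam1 and Thbd were at -0.29, -0.10 and -0.09, less than the SD between probe sets of a gene. Lymphocyte markers were below 0 for 4 of 5, with a median of -0.76, and Cd8a was below the floor. Of the 5, 3 were at least 1.5-fold lower, against 5.04% of all genes, and 0 were at least 1.5-fold higher. Among those 3, Cd3d and Cd79b gave only a bound. The summed signals of measured probe sets were 2168.8 in the portal hypertensive pool and 2837.8 in the sham pool. Smooth muscle markers were below 0 for 5 of 7, with a median of -0.10 and a summed signal 0.958 times that of sham. Fat cell markers were above 0 for 5 of 7 with a median of 0.34, fibroblast markers for 7 of 8 with 0.22, macrophage markers for 4 of 6 with 0.33 and mast cell markers for 4 of 6 with 0.13. Their part in the ratios of the immediate-early factors was not tested.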

How the data were processed

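Arteries of 20 rats per group gave 1 pool of total RNA, made with TRIzol and an RNeasy cleanup, per the labels. The deposited table holds a linear signal intensity for each probe set in each pool. How the authors computed, background-corrected and scaled it is not stated in the labels or headers. The trimmed means of the 2 arrays were nearly equal, so no further scaling was applied. Their medians were lower in the portal hypertensive pool, and other scalings were among the alternatives. Values under the floor, the 40th percentile, were raised to it ahead of the log2 step, which compresses low signals. The platform annotation named the probe sets: 7018 had 1 gene symbol, 308 several and 1473 none. A gene's value is the median log2 ratio over its probe sets above the floor in at least 1 pool. No test was possible with 1 array per group, and counts are set beside the share of all genes that meets the same limit. The procedure was tested on simulated data with Python 3.11.15, numpy 2.4.6 and pandas 2.3.3. All probe sets of the 10 genes are named. Of each gene list up to 4 genes are named, those with the largest absolute ratio that were measured on both arrays with no probe set in the opposite direction. The genes, lists and settings were chosen with earlier results of these data known. The 10 alternatives changed scaling, floor or the summary of probe sets. No genes of like pattern are named, since 2 pools give 1 ratio.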

Additional observations from a re-analysis of the deposited data

How the results depend on the processing

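The median of the immediate-early factors stayed below 0 under all 10 alternatives. It was -0.23 as reported, -0.09 without probe sets of shared design, -0.12 with the probe set of highest level, -0.14 after median centring, -0.18 with no floor, -0.19 after the loess, -0.20 after quantile normalization and -0.46 with the floor at the 60th percentile. Their count below 0, 8 of 9, was 5 of 5 with the floor at the 60th percentile, where 4 genes lost their value, and 5 of 5 measured probe sets were then below 0, 1 of them at least 1.5-fold lower. With the floor at the 20th percentile 4 probe sets were at least 1.5-fold lower. Using the probe set of highest level, 1 of 9 genes, Jun, was at least 1.5-fold higher. With that setting 7 of 14 other early regulators were below 0, against 51.5% of all genes. Without probe sets of shared design 0 genes were at least 1.5-fold lower, because Klf6 then has no value. After quantile normalization the upstream list had 7 of 15 genes below 0, against 48.3% of all genes. After median centring it had 6 of 15, against 42.0%. It had 7 of 10 with the higher floor, against 52.15%, and 6 of 11 without shared designs, against 51.4%. Heat shock had 5 of 12 after median centring, against 42.0% of all genes. With the higher floor the AP-1 partners and the mRNA decay list had 3 each, of 4 and 3 genes with a value. The share of all genes was then 52.15%. The classical targets had 10 of 19 with the lower floor and 13 of 22 with no floor. In both settings 52.6% of all genes were below 0. On the strand of the gene alone, the CRE core was in 3 of the 7 promoters, against 12.7% of all promoters. The causes of these shifts were not tested, beyond the genes that gain or lose a value. No paired analysis was possible because each group is 1 pool. Signals near or below the floor limit Jun, Nr4a2, Nr4a3, Junb and Jund, and Fos and Egr1 also had probe sets below it.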

Other observations

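Among early-response genes outside the 10, chosen after their values were seen, probe sets of Dusp1 and Gadd45a disagreed. Dusp1, a phosphatase of mitogen-activated kinases that is induced together with Fos, was at 317.9, below the floor, in the portal hypertensive pool and at 1013.9 in the sham pool on U02553cds_s_at, at least 3.06-fold lower. Its other probe sets gave log2 ratios of -0.19 and -0.16. Gadd45a, a growth arrest gene, had log2 ratios of 0.92 and 0.39 on the probe sets from 1 source sequence and of -0.20 and -0.31 on those from the other.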
